A study of Homo sapiens with 8 samples.

Results

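p53 is a transcription factor that accumulates when DNA is damaged or cells are stressed, and it switches on genes that stop the cell cycle, repair DNA, start apoptosis and change metabolism. Among its targets are its own inhibitors, above all MDM2, which marks p53 for degradation, so that the pathway limits itself. Many of these targets also respond to other stress factors, among them ATF4, the main regulator of the integrated stress response. 31 established p53 target genes were examined by symbol among the 58828 genes counted. All 31 were found, and all 31 passed the filter on low counts, EDA2R and SPATA18 through the 22RV1 libraries alone. They fell into 3 genes that feed back on p53, 5 linked to cell cycle arrest, 9 linked to apoptosis, 4 linked to DNA repair and 10 linked to metabolism, survival or other functions.

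Libraries were made from RNA of 22RV1 and DU145 cells, which are long-established lines of human prostate cancer. Both had been infected with a lentiviral vector that was empty or expressed HA-tagged PAGE4, a cancer/testis antigen, from a doxycycline-inducible promoter, and were selected with puromycin. All cells, vector cells included, were given doxycycline, and each was then treated for 12 h with 200 mM H2O2 or with PBS as its control. The labels and the study's methods give this dose, while another passage of the study gives a lower one for its own mRNA measurements. This gave 8 conditions with 1 library each, so each line with each construct was 1 selected culture. The p-values below measure only the spread between these libraries, and for each gene that spread is estimated in part from the other genes. With 1 line of each kind, no single difference between 22RV1 and DU145 cells can be told apart from the others.

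Total counts per library ranged from 25482984 to 43310401. PAGE4 had 0 or 1 read in each of the 4 vector libraries and 1001 to 1489 reads in each of the 4 PAGE4 libraries, as labelled. KLK2, a prostate kallikrein, was at 14.3 to 71.3 CPM (counts relative to library size, scaled with TMM factors over all 8 libraries) in 22RV1 cells and at or below 0.111 CPM in DU145 cells, and KLK3, FOLH1 and TMPRSS2 likewise marked 22RV1 cells. VIM, CAV1 and S100A2 were higher in DU145 cells, while CD44 and LGALS1 did not separate the lines and KRT5 was at or near 0 in both.

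Because p53 acts by binding a pair of decamers, promoters of the target genes were searched for such pairs, and those found are shown here to place the genes in sequence. The search took the p53 response element by name, 10 bases in each of its decamers, with up to 2 mismatches in all and up to 13 bases between them, in the 300 bases from 250 before to 50 after each RefSeq start on GRCh38.p14. The fixed C and G of each decamer had to match, so mismatches were allowed only at its other bases. A pair was found in 5 of the 26 members with a promoter entry, which is 19.2%, against 989 of 27305 genes, or 3.62%, and against 2.93% of 35116 single promoters. The pair is its own reverse complement in consensus, so a match holds for both strands. The matching decamers are in capitals, and each stretch is given 5′ to 3′ on the strand of the gene.
AEN (chr15:88621266-88621365, plus strand): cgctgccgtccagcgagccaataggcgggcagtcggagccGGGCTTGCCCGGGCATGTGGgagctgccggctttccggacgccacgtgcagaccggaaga
DDB2 (chr11:47214939-47215023, plus strand): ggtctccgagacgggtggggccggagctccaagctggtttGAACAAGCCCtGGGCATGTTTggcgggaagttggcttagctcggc
FAS (chr10:88991269-88991368, plus strand): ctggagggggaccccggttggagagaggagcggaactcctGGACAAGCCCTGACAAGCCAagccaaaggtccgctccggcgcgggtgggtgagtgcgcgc
FDXR (chr17:74872956-74873065, minus strand): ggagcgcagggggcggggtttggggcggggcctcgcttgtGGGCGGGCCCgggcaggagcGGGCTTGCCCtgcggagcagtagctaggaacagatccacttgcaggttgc
MDM2 (chr12:68808883-68808982, plus strand): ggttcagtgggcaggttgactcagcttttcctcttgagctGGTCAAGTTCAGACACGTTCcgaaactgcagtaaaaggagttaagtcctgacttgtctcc
The pair in DDB2 had 0 mismatches and 1 base between its decamers, and the other 4 had 2 mismatches. The windows of the other 21 members hold no such pair of letters, which says nothing of sites elsewhere. GADD45A, TNFRSF10B, TP53INP1, PHLDA3 and RRM2B had no promoter entry.

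With H2O2, p53 target genes rose as a group in 22RV1 cells, and in DU145 cells more of them rose than fell. In 22RV1 cells, 30 of the 31 rose and 0 fell at an adjusted p under 0.05, against 12.8% of the 22418 genes tested that rose and 14.9% that fell. In DU145 cells, 17 rose and 6 fell, against 16.9% and 19.8% of all genes. The other 8 were not called, among them EDA2R and SPATA18, which were not detected there. The share that fell in DU145 cells was thus near that of all genes, and the share that rose was above it. The median log2 fold change was 1.45 in 22RV1 cells over all 31 and 0.56 in DU145 cells over the 29 with more than 3 reads there, against -0.00174 and -0.0327 over all genes. When the responses themselves were compared, the log2 fold change was higher in 22RV1 cells for 23 of the 31 and higher in DU145 cells for 0, against 8.76% and 7.54% of all genes. In a fit with 1 H2O2 response common to both lines, 17 of the 29 members detected in both rose and 0 fell, against 8.89% and 11.2% of all genes, genes detected in only 1 line included. Without the 22RV1 vector pair PLK2, PHLDA3 and ZMAT3 of these no longer passed, and without the 22RV1 PAGE4 pair PLK2 and PHLDA3. These are bulk RNA levels, in which fewer cells expressing a gene and less RNA per cell cannot be told apart.

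**Figure D1:**
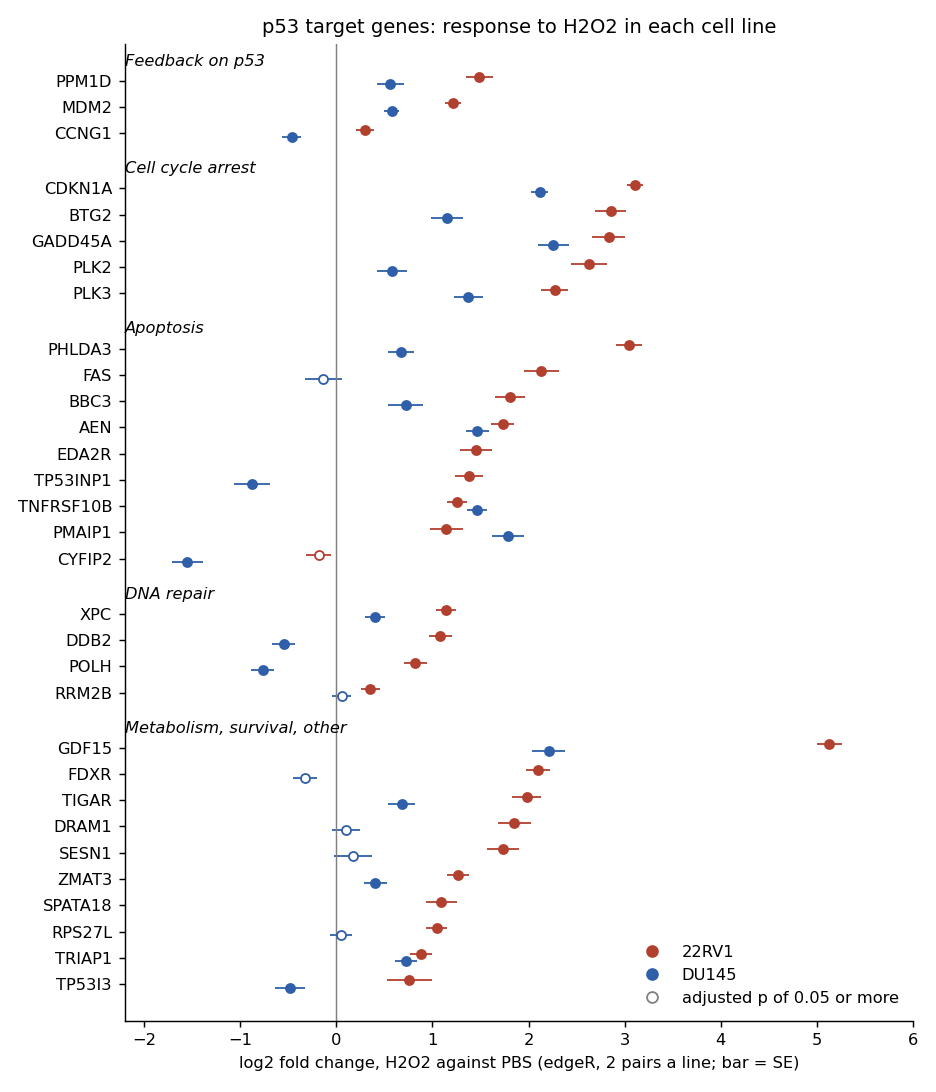
Log2 fold change with H2O2 against PBS (horizontal axis, edgeR, 2 pairs of libraries a line, bars are standard errors) for the 31 p53 target genes, grouped by role, in 22RV1 cells (red) and DU145 cells (blue), with open points for an adjusted p of 0.05 or more. All red points but CYFIP2 lie right of 0, up to 5.13 for GDF15, while blue points lie on both sides, from -1.55 for CYFIP2 to 2.26 for GADD45A. EDA2R and SPATA18 have no blue point because they had 0 or 1 read in each DU145 library.

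Compared library by library, the same 8 libraries gave similar counts. In 22RV1 cells, both H2O2 libraries lay above both PBS libraries for 30 members and below for 0, with CYFIP2 overlapping, against 28.6% and 28.8% of all genes. In DU145 cells, both lay above for 17 and below for 7, against 30.4% and 34.4% of all genes. The share below was thus under that of all genes, and the share above exceeded it. FAS, EDA2R, RRM2B, SESN1, SPATA18, DRAM1 and RPS27L overlapped. Without the DU145 vector pair, 14 of the 23 DU145 calls were kept, and PPM1D, CCNG1, PLK2, BBC3, TP53INP1, PHLDA3, DDB2, XPC and TP53I3 no longer passed, and without the DU145 PAGE4 pair XPC, TIGAR, TP53I3 and ZMAT3 did not. Of the 23 differences in response, 20 were kept without the DU145 PAGE4 pair, when PLK3, BBC3 and TP53I3 no longer passed, and all 23 were kept when any other pair was left out. Without the 22RV1 vector pair 2 members, and without the DU145 PAGE4 pair 1 member, had the higher fold change in DU145 cells.

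Of the 3 genes that feed back on p53, all 3 rose in 22RV1 cells, while MDM2 and PPM1D rose and CCNG1 fell in DU145 cells. MDM2 was at 150.3 and 145 CPM in 22RV1 vector and PAGE4 cells with PBS and at 360.4 and 329.5 CPM with H2O2. In DU145 cells it was at 83.2 and 75.3 CPM with PBS and at 118 CPM in both with H2O2. Both lines showed H2O2 libraries above PBS libraries, and the 22RV1 libraries with PBS already lay above the DU145 libraries with H2O2. The log2 fold change of MDM2 was 1.21 ± 0.08 in 22RV1 (edgeR adjusted p = 5.99e-09) and 0.57 ± 0.08 in DU145 cells (adjusted p = 2.16e-05), with a difference of 0.64 ± 0.11 (adjusted p = 0.000725). PPM1D, the phosphatase WIP1 that removes activating phosphates from p53, rose by 1.49 ± 0.14 in 22RV1 and by 0.56 ± 0.14 in DU145 cells. CCNG1, cyclin G1, which brings a phosphatase to MDM2, had the opposite directions, with 0.30 ± 0.09 in 22RV1 (adjusted p = 0.0217) and -0.46 ± 0.10 in DU145 cells (adjusted p = 0.00134). The rise of CCNG1 in 22RV1 cells did not pass without either 22RV1 pair, with DESeq2's Wald test or with no filter on low counts.

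All 5 arrest genes rose in both lines, and 4 of them rose more in 22RV1 cells, but the rise of PLK2 in DU145 cells did not pass with DESeq2's Wald test or without the DU145 vector pair. CDKN1A, which encodes the cyclin-dependent kinase inhibitor p21, was at 142 and 171 CPM in 22RV1 vector and PAGE4 cells with PBS and at 1357 and 1336 CPM with H2O2. In DU145 cells it was at 48.9 and 49.7 CPM with PBS and at 199 and 229 CPM with H2O2. The DU145 libraries with H2O2 thus stood above the 22RV1 libraries with PBS. CDKN1A rose 8.60-fold in 22RV1 (log2 fold change 3.10 ± 0.09, edgeR adjusted p = 1.92e-13) and 4.33-fold in DU145 cells (2.11 ± 0.09, adjusted p = 1.70e-11), and the difference of 0.99 ± 0.12 passed (adjusted p = 1.41e-05). CDKN1A overlaps DINOL, a noncoding RNA on the opposite strand, and whether counting used strand is not given in the sources used here. The same limit holds for other members. Of the 31, 14 overlap exons on the opposite strand, MDM2, FAS, TP53INP1 and POLH among them, and 5 overlap exons on the same strand.

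BTG2, an antiproliferative gene that recruits RNA deadenylases, was at 11.7 and 14.8 CPM in 22RV1 vector and PAGE4 cells with PBS and at 114 and 80.2 CPM with H2O2, against 10.4 and 11.6 CPM and then 25.2 and 23.7 CPM in DU145 cells. The lines started together for BTG2 and parted with H2O2, with a difference in response of 1.70 ± 0.23 (edgeR adjusted p = 5.28e-05). PLK2, a stress-induced polo-like kinase, was at 4.43 and 4.94 CPM in 22RV1 cells with PBS and at 40.5 and 20.1 CPM with H2O2, and at 44.7 and 61.1 CPM and then 69.4 and 87.9 CPM in DU145 cells. PLK2 therefore rose far more in 22RV1 cells (difference 2.05 ± 0.24, adjusted p = 1.80e-05) but remained below every DU145 library. GADD45A, a growth arrest gene induced by DNA damage, was at 11.9 and 13.1 CPM in 22RV1 cells with PBS and at 110.0 and 72.6 CPM with H2O2, and at 14.3 and 23.9 CPM and then 89.0 CPM in both in DU145 cells. The H2O2 levels of GADD45A overlapped between the lines, and its difference in response, 0.57 ± 0.23, did not pass (adjusted p = 0.103), though it passed without the 22RV1 PAGE4 pair (0.89) or the DU145 vector pair (0.92). PLK3, a related stress kinase, rose by 2.27 ± 0.14 in 22RV1 and by 1.37 ± 0.15 in DU145 cells.

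**Figure D2:**
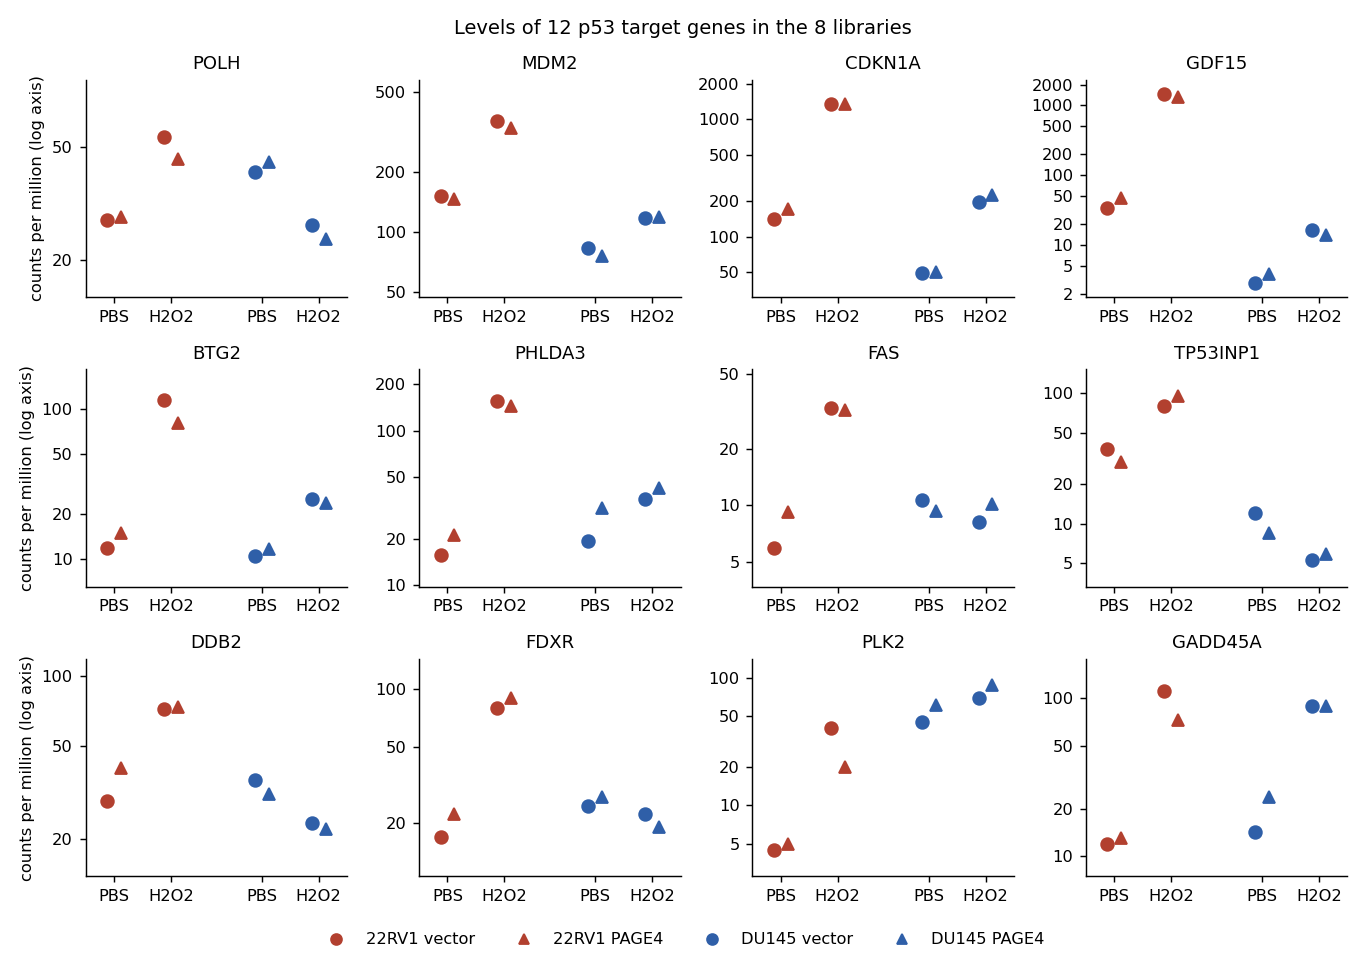
Levels in CPM (log axes, TMM-scaled) of 12 p53 target genes in each of the 8 libraries, with PBS or H2O2, for 22RV1 (red) and DU145 (blue) cells with vector (circles) or PAGE4 (triangles). GDF15 and CDKN1A reach 1329.8 to 1464 and 1336 to 1357 CPM in the 22RV1 libraries with H2O2, and DDB2, POLH and TP53INP1 move in opposite directions in the lines.

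Of the 9 apoptosis genes, 8 rose in 22RV1 cells, against 5 that rose and 2 that fell in DU145 cells, and 5 differed in response. FAS, a cell surface death receptor, was at 5.88 and 9.17 CPM in 22RV1 vector and PAGE4 cells with PBS and at 33.1 and 32.0 CPM with H2O2. In DU145 cells it was at 10.7 and 9.34 CPM with PBS and at 8.10 and 10.2 CPM with H2O2. The DU145 libraries overlapped and the 22RV1 libraries did not. The log2 fold change of FAS was 2.13 ± 0.18 in 22RV1 and -0.13 ± 0.19 in DU145 cells (edgeR adjusted p = 0.644), a difference of 2.27 ± 0.26 (adjusted p = 1.27e-05).

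TP53INP1, which promotes p53 phosphorylation and cell death, was at 37.6 and 29.5 CPM in 22RV1 vector and PAGE4 cells with PBS and at 80.2 and 95.2 CPM with H2O2, against 12.2 and 8.49 CPM and then 5.25 and 5.86 CPM in DU145 cells. It thus moved in opposite directions, rising by 1.38 ± 0.15 in 22RV1 cells and falling in DU145 cells (-0.88 ± 0.19, edgeR adjusted p = 0.00107). PHLDA3, an inhibitor of AKT, rose from 15.6 and 21.0 CPM to 156 and 144 CPM in 22RV1 cells, and from 19.2 and 31.6 CPM to 36.2 and 42.7 CPM in DU145 cells. Its log2 fold changes were 3.04 ± 0.14 and 0.67 ± 0.13, and they differed by 2.37 ± 0.19 (adjusted p = 1.55e-07). BBC3, which encodes the BH3-only protein PUMA, also rose more in 22RV1 cells (1.81 ± 0.16) than in DU145 cells (0.72 ± 0.18).

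For PMAIP1, TNFRSF10B and AEN the difference did not pass. PMAIP1, which encodes the BH3-only protein NOXA, was at 8.95 and 11.1 CPM in 22RV1 vector and PAGE4 cells with PBS and at 27.7 and 17.3 CPM with H2O2, and at 22.1 and 27.8 CPM and then 85.6 and 85.0 CPM in DU145 cells. Its log2 fold change was 1.14 ± 0.17 in 22RV1 and 1.78 ± 0.16 in DU145 cells, and the difference of -0.64 ± 0.24 did not pass (edgeR adjusted p = 0.0768). TNFRSF10B, a receptor for the death ligand TRAIL, was at 80.4 and 101 CPM in 22RV1 cells with PBS and at 236 and 199 CPM with H2O2, and at 98.9 and 99.0 CPM and then 277 and 268 CPM in DU145 cells. It rose in both lines, by 1.26 ± 0.10 and 1.46 ± 0.11. AEN, a nuclease that digests DNA in apoptosis, likewise rose in both, by 1.73 ± 0.12 and 1.46 ± 0.12. The difference for AEN, 0.27 ± 0.17 (adjusted p = 0.329), was 0.56 and passed without the 22RV1 PAGE4 pair and was -0.13 without the 22RV1 vector pair.

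EDA2R and CYFIP2 completed the apoptosis genes. EDA2R, a receptor for ectodysplasin A2, had 0 reads in all 4 DU145 libraries, where 3 counts a library would be at most 0.120 CPM. In 22RV1 cells it was at 9.60 and 10.2 CPM in vector and PAGE4 cells with PBS and at 26.6 and 27.9 CPM with H2O2, a log2 fold change of 1.45 ± 0.17. Against the floor of 3 counts, its lowest 22RV1 level was at least 79.8-fold higher than in any DU145 library. CYFIP2, a subunit of the actin-regulating WAVE complex, was the only member that did not rise in 22RV1 cells, with 29.9 and 50.4 CPM with PBS in vector and PAGE4 cells, 23.3 and 50.4 CPM with H2O2, and a log2 fold change of -0.18 ± 0.13 (edgeR adjusted p = 0.341). In DU145 cells CYFIP2 fell from 17.1 and 12.3 CPM to 6.66 and 3.58 CPM, a log2 fold change of -1.55 ± 0.16 (adjusted p = 9.33e-07). The 22RV1 libraries of CYFIP2 divided by construct rather than by treatment.

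All 4 repair genes rose in 22RV1 cells, whereas 1 rose and 2 fell in DU145 cells. DDB2, which recognises ultraviolet damage and holds the promoter pair with 0 mismatches shown above, was at 29.1 and 40.2 CPM in 22RV1 vector and PAGE4 cells with PBS and at 71.9 and 73.6 CPM with H2O2. In DU145 cells it was at 35.8 and 31.2 CPM with PBS and at 23.4 and 22.3 CPM with H2O2. With PBS the lines overlapped, and with H2O2 they moved apart in opposite directions, by 1.08 ± 0.12 and -0.55 ± 0.12, a difference of 1.63 ± 0.17 (edgeR adjusted p = 3.95e-06). POLH, a polymerase that copies past lesions, was at 27.7 and 28.2 CPM in 22RV1 cells with PBS and at 54.1 and 45.5 CPM with H2O2, and at 40.8 and 44.3 CPM and then 26.4 and 23.6 CPM in DU145 cells. The order of the lines was thus turned around for POLH, with a difference in response of 1.59 ± 0.17 (adjusted p = 4.82e-06). XPC, a damage sensor of nucleotide excision repair, rose in both lines, by 1.14 ± 0.10 in 22RV1 and by 0.40 ± 0.11 in DU145 cells. RRM2B, a subunit of ribonucleotide reductase that supplies nucleotides for repair, rose by 0.35 ± 0.10 in 22RV1 cells, stood at 0.06 ± 0.10 in DU145 cells, and its responses could not be told to differ between the lines (0.30 ± 0.14, adjusted p = 0.175). Its rise did not pass without the 22RV1 PAGE4 pair (0.30, adjusted p = 0.0896).

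All 10 genes of metabolism, survival and other functions rose in 22RV1 cells, against 4 that rose and 1 that fell in DU145 cells, and 8 differed in response. GDF15, a secreted protein of the TGF-beta family that is a general stress signal, was at 33.6 and 46.7 CPM in 22RV1 vector and PAGE4 cells with PBS and at 1464 and 1329.8 CPM with H2O2. In DU145 cells it was at 2.85 and 3.77 CPM with PBS and at 16.5 and 14.1 CPM with H2O2. Every 22RV1 library was above every DU145 library, and the H2O2 libraries of 22RV1 cells stood far from all others. GDF15 rose 35.0-fold in 22RV1 (log2 fold change 5.13 ± 0.13, edgeR adjusted p = 1.19e-13) and 4.62-fold in DU145 cells (2.21 ± 0.17, adjusted p = 3.68e-08), which was the largest rise of the 31 in 22RV1 cells and the largest difference between the lines, 2.92 ± 0.23 (adjusted p = 1.29e-07).

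FDXR, the ferredoxin reductase of mitochondria, was at 17.0 and 22.4 CPM in 22RV1 vector and PAGE4 cells with PBS and at 79.2 and 89.0 CPM with H2O2, against 24.6 and 27.3 CPM and then 22.4 and 19.1 CPM in DU145 cells. The rise of 2.097 ± 0.12 in 22RV1 cells stood against -0.33 ± 0.12 in DU145 cells, which did not pass (edgeR adjusted p = 0.05004) but did without the DU145 vector pair (adjusted p = 0.0363) or either 22RV1 pair (0.0314 and 0.0297), and the difference was 2.42 ± 0.17 (adjusted p = 5.06e-08). DRAM1, a lysosomal protein of autophagy, was at 1.66 and 2.98 CPM in 22RV1 cells with PBS and at 6.39 and 10.3 CPM with H2O2, and at 24.5 and 23.8 CPM and then 27.7 and 24.1 CPM in DU145 cells. It rose only in 22RV1 cells by the test of each line, by 1.85 ± 0.17, and its responses differed by 1.75 ± 0.22 (adjusted p = 3.85e-05), yet no 22RV1 library reached any DU145 library. TIGAR, a phosphatase that slows glycolysis, rose in both lines, by 1.98 ± 0.15 and 0.68 ± 0.14.

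SESN1, a sestrin that restrains mTORC1, rose by 1.73 ± 0.17 in 22RV1 cells against 0.17 ± 0.20 in DU145 cells. RPS27L, a ribosomal protein paralogue, rose by 1.04 ± 0.11 in 22RV1 cells and was at 0.05 ± 0.12 in DU145 cells. As RPS27L has near copies, reads shared among them could have been counted elsewhere. ZMAT3, an RNA-binding regulator of splicing, rose by 1.27 ± 0.11 and 0.41 ± 0.12, and TRIAP1, a mitochondrial survival factor, by 0.88 ± 0.11 and 0.72 ± 0.12. TP53I3, a quinone oxidoreductase, was weakly expressed in 22RV1 cells, at 0.984 and 1.14 CPM with PBS and 1.71 and 1.91 CPM with H2O2, but stood at 25.6 and 27.0 CPM and then 19.7 and 17.9 CPM in DU145 cells. It rose by 0.76 ± 0.23 in 22RV1 cells (edgeR adjusted p = 0.0213) and fell by 0.49 ± 0.16 on the log2 scale in DU145 cells (adjusted p = 0.0206), and both calls were lost without either pair of the line in question, the DU145 call also with DESeq2's Wald test. SPATA18, a gene of mitochondrial quality control, rose by 1.09 ± 0.16 in 22RV1 cells and had 0 or 1 read in each DU145 library.

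The lines were also compared directly within each treatment, blocked by construct. Of the 29 members detected in both lines, 11 were higher in 22RV1 cells with PBS and 9 were lower, against 31.7% and 29.4% of all genes. With H2O2, 19 were higher and 6 were lower, against 31.7% and 28.4% of all genes. Over all 4 conditions, 13 were higher and 5 lower, against 31.9% and 28.5%. EDA2R and SPATA18, with 0 or 1 read in each DU145 library, were left out of these counts, while the shares of all genes still include genes detected in only 1 line. The median difference among the 29 was -0.03 on the log2 scale with PBS and 1.32 with H2O2. With PBS the members thus lay on both sides, and with H2O2 most were higher in 22RV1 cells.

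Single genes still differed strongly with PBS. CDKN1A was 3.18-fold higher in 22RV1 cells with PBS and 6.31-fold higher with H2O2, and GDF15 was 12.2-fold and 91.2-fold higher. At the other end TP53I3 was 24.6-fold lower in 22RV1 cells with PBS, PLK2 was 11.2-fold lower and DRAM1 was 10.6-fold lower, and with H2O2 these differences were 10.4-fold, 2.59-fold and 3.20-fold. The differences of FAS and DDB2 did not pass with PBS (log2 differences of -0.43 ± 0.21 and 0.05 ± 0.15, edgeR adjusted p = 0.0928 and 0.803) and both genes were higher in 22RV1 cells with H2O2 (1.84 ± 0.21 and 1.67 ± 0.15). FDXR and PHLDA3 went from lower in 22RV1 cells with PBS (-0.40 ± 0.15 and -0.45 ± 0.16) to higher with H2O2 (2.01 ± 0.15 and 1.94 ± 0.16), but the PBS calls of these 2 genes were lost when counts were scaled by total counts.

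The effect of PAGE4 on these genes was small beside that of H2O2. Over both lines and treatments, 0 of the 31 differed between PAGE4 cells and vector cells by edgeR, against 0.0981% of all genes higher and 0.0758% lower, where 868 and 863 genes had an unadjusted p under 0.05. DESeq2's Wald test also called 0 of the 31. In DU145 cells 0 were called higher or lower, against 0.112% and 0.058% of all genes. In 22RV1 cells, 2 were higher with PAGE4 and 0 lower, against 2.15% and 2.14%. These were CYFIP2 (0.93 ± 0.13, edgeR adjusted p = 0.000302) and DRAM1 (0.75 ± 0.17, adjusted p = 0.0160). The levels of both genes in all 8 libraries are given above, and in 22RV1 cells each PAGE4 library lay above the vector library of the same treatment. In DU145 cells CYFIP2 had -0.64 ± 0.16 (adjusted p = 0.163), and of the 31 it alone differed between the lines in its PAGE4 effect (1.57 ± 0.21, adjusted p = 0.000402), against 0.865% of all genes higher and 0.977% lower. DRAM1 no longer passed without the 22RV1 H2O2 pair (0.87), when the effect in 22RV1 cells rested on the remaining pair of libraries. CYFIP2 overlaps other annotated exons, ADAM19 among them.

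Whether PAGE4 changed the H2O2 response was examined with an interaction term common to both lines, which left 1 residual degree of freedom. GADD45A (-0.74 ± 0.16, edgeR adjusted p = 0.00532) and GDF15 (-0.62 ± 0.13, adjusted p = 0.00429) rose less in PAGE4 cells, against 0.116% of all genes lower and 0.0758% higher. With DESeq2's Wald test neither passed, with adjusted p of 1 for GADD45A and 0.630 for GDF15. The H2O2 libraries of GADD45A differed by construct only in 22RV1 cells, at 110.0 and 72.6 CPM, while in DU145 cells the PBS libraries differed, at 14.3 and 23.9 CPM.

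Between pairs of libraries, the H2O2 responses of the target genes were closely correlated between the constructs, but most were higher with vector in 22RV1 cells. With vector, 28 of 31 members in 22RV1 cells were over 1.5-fold higher with H2O2 and 0 lower, against 17.7% and 19.7% of all genes, and with PAGE4, 28 were higher and 0 lower, against 14.8% and 15.7%. In DU145 cells, 14 of 29 were over 1.5-fold higher and 4 lower with vector, against 19% and 21.3%, and 11 were higher and 2 lower with PAGE4, against 19.4% and 21.9%. Across the members, the log2 fold changes with vector and with PAGE4 had a Pearson r of 0.948 in 22RV1 cells (31 genes) and 0.935 in DU145 cells (29 genes), against 0.569 and 0.703 over all genes examined, where genes are not independent replicates and the fold changes of the 2 constructs share no library. The fold change was higher with vector than with PAGE4 for 26 of the 31 in 22RV1 cells, where this held for 50.9% of all genes, and for 17 of the 29 in DU145 cells, against 49.6%. The medians in 22RV1 cells were 1.64 with vector and 1.38 with PAGE4. Between PAGE4 and vector cells of 22RV1, the median log2 fold change of the members was 0.30 with PBS, against 0.0207 over all genes. With H2O2 it was -0.0009, against 0.0025. The members thus stood higher in PAGE4 cells with PBS and level with H2O2, and the cause was not tested.

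The widest gap in 22RV1 cells was in PLK2, with a log2 fold change of 3.20 with vector (95% Clopper-Pearson interval 2.99 to 3.43, counting error only) and 2.01 with PAGE4 (1.78 to 2.26). PMAIP1 was at 1.64 (1.48 to 1.81) and 0.64 (0.45 to 0.83). TP53INP1 went the other way, at 1.11 (1.02 to 1.20) with vector and 1.68 (1.58 to 1.78) with PAGE4. These intervals do not overlap, but with 1 library a condition the spread between cultures is not in them. PAGE4 cells and vector cells under the same treatment differed by over 1.5-fold in few members, at most 4 higher and 3 lower in any of the 4 comparisons. With PBS, 4 members were higher in 22RV1 PAGE4 cells (BBC3, FAS, CYFIP2 and DRAM1, against 8.35% of all genes) and 4 in DU145 PAGE4 cells (PLK3, GADD45A, BBC3 and PHLDA3, against 7.54%), and 0 were lower in either, against 11.3% and 7.76%. With H2O2, 3 were higher and 3 lower in 22RV1 PAGE4 cells, against 11.1% and 12.1%, and 1 was higher and 1 lower in DU145 PAGE4 cells, against 7% and 8.2%.

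**Figure D3:**
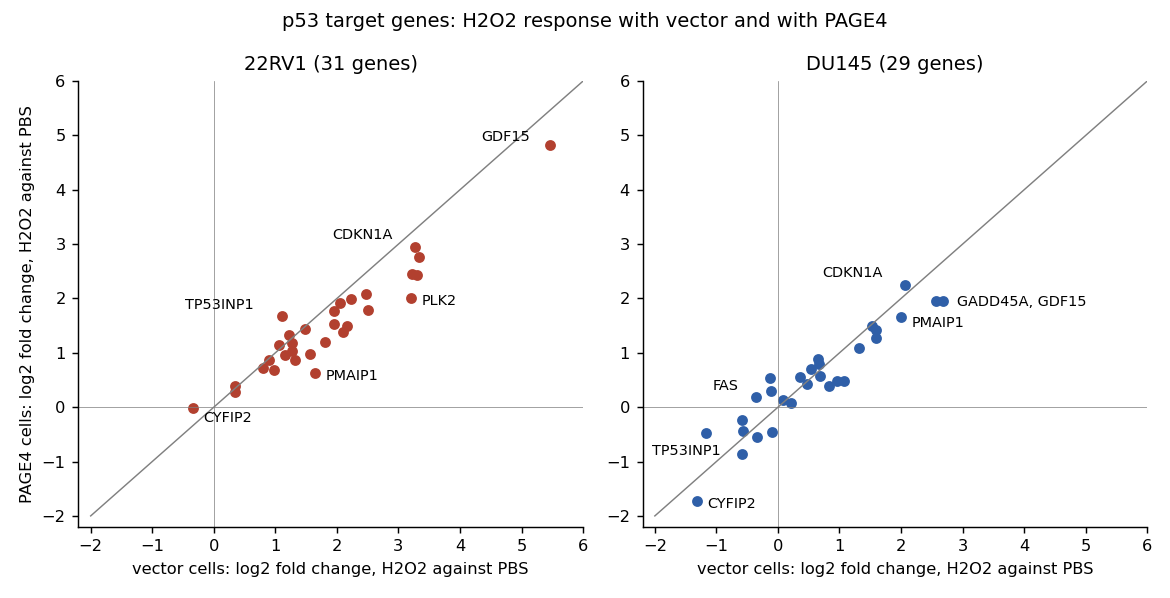
Log2 fold change with H2O2 against PBS in vector cells (horizontal axis) and PAGE4 cells (vertical axis) for each p53 target gene, from 1 pair of libraries a point and axis, in 22RV1 (31 genes) and DU145 (29 genes), with the line of equality. The points follow the line (r of 0.948 and 0.935), and in 22RV1 cells 26 of 31 lie below it.

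Other genes around p53 were counted by lists. Over all 22418 genes tested, 12.8% rose and 14.9% fell in 22RV1 cells, and 16.9% rose and 19.8% fell in DU145 cells. The fold change was higher in 22RV1 cells for 8.76% of them and in DU145 cells for 7.54%. Of 38 further p53 targets, 24 rose and 1 fell in 22RV1 cells, while 15 rose and 11 fell in DU145 cells, and the fold change was higher in 22RV1 cells for 16 and in DU145 cells for 2. BAX, which permeabilises mitochondria, rose by 0.85 ± 0.11 in 22RV1 cells and was at -0.02 ± 0.12 in DU145 cells, LIF, a cytokine, rose by 2.78 ± 0.15 in 22RV1 cells and had -0.35 ± 0.11 in DU145 cells, and SESN2, the sestrin that ATF4 also induces, rose in both, by 2.75 ± 0.14 and 2.29 ± 0.13. SFN, which encodes 14-3-3 sigma, was an exception, with -0.14 ± 0.07 in 22RV1 cells (edgeR adjusted p = 0.150) and a rise of 1.34 ± 0.07 in DU145 cells. Of 21 tested regulators and relatives of p53, 6 rose and 5 fell in 22RV1 cells, and 9 rose and 5 fell in DU145 cells, so the regulators showed no common direction. MDM4, the p53 inhibitor related to MDM2, rose in both lines, by 0.42 ± 0.08 and 0.87 ± 0.08, ATM, the kinase that signals DNA breaks, fell in both (-0.82 ± 0.11 and -1.06 ± 0.11), and NQO1, a quinone reductase that stabilises p53, rose by 1.63 ± 0.09 in 22RV1 cells and fell in DU145 cells (-0.49 ± 0.09).

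Of 15 cell cycle genes that p53 is known to repress through p21, all 15 fell in both lines. Over all genes, 14.9% fell in 22RV1 and 19.8% in DU145 cells. The median of the 15 was -1.33 in 22RV1 and -1.10 in DU145 cells. In 22RV1 cells 7 of them fell further, against 7.54% of all genes with the lower fold change there. PLK1, the kinase of mitotic entry, had -2.42 ± 0.09 and -1.52 ± 0.08, CCNB1, cyclin B1, had -1.95 ± 0.11 and -1.29 ± 0.11, and BUB1, a spindle checkpoint kinase, had -1.64 ± 0.10 and -1.60 ± 0.10. Of 12 genes that ATF4 induces, ATF4 included, 11 rose in 22RV1 cells and 10 in DU145 cells, with 0 lower in either, and their medians were 1.27 and 1.23. Of these 12, 4 had the higher fold change in 22RV1 cells and 2 in DU145 cells. ATF3, a stress transcription factor, rose by 2.06 ± 0.13 and 1.88 ± 0.13, and DDIT3, which encodes CHOP, by 1.21 ± 0.10 and 1.80 ± 0.11. The ATF4 genes thus had like medians in the lines, whereas the medians of the p53 targets were 1.45 and 0.56, and the part of the ATF4 genes in the response of the p53 targets was not tested.

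**Figure D4:**
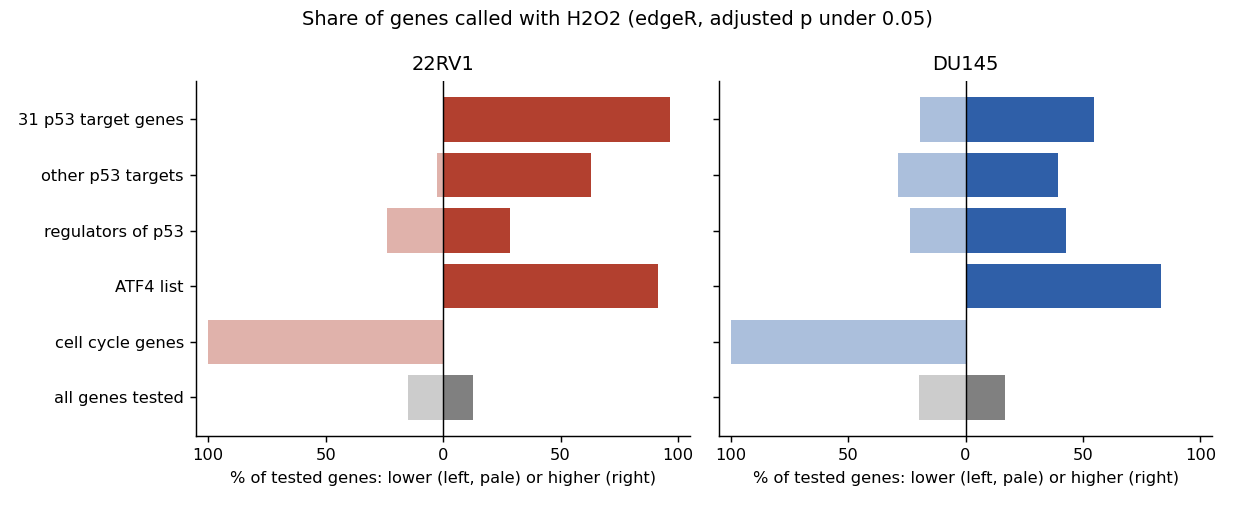
Share of the tested genes of each list called higher (right, dark) or lower (left, pale) with H2O2 at an edgeR adjusted p under 0.05, in % of the list, in 22RV1 and DU145 cells, with all 22418 genes tested at the bottom. The 31 p53 targets have 96.8% higher in 22RV1 cells and 54.8% higher with 19.4% lower in DU145 cells, the ATF4 list has 91.7% and 83.3% higher, and all cell cycle genes are lower in both lines. The 31 include EDA2R and SPATA18, which were not detected in DU145 cells.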

How the data were processed

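The deposited files hold raw counts by gene symbol, 1 table a cell line, which the authors made by aligning reads to GRCh38 (HISAT2 2.1.0) and counting with featureCounts 1.6.0. Annotation, strand setting and treatment of multi-mapping reads are not given in the sources used here. The tables were joined by symbol. Filtered counts went into edgeR 4.0.16 (R 4.3.3) for its quasi-likelihood test, with TMM scaling, Benjamini-Hochberg adjustment over all 22418 genes tested and a threshold of 0.05. H2O2 fits had the 4 pairs of line and construct as blocks (2 residual degrees of freedom by line, 3 for the common response), PAGE4 fits the 4 pairs of line and treatment, and the line fit over all conditions had the conditions. Line comparisons within a treatment were contrasts between the blocks of the PAGE4 fit common to both lines. Fold changes between 2 libraries used DESeq2 1.42.0 size factors within a line, a mean normalized count of at least 10 and a pseudocount of 0.5. The edgeR standard errors, given after ±, were the absolute log2 fold change divided by the square root of that test's F statistic. Intervals and the floor of 3 counts cover counting error only. The tests were checked on simulated data. Alternatives were DESeq2 size factors, total counts, no filter, DESeq2's Wald test and each pair left out.

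The members and lists were chosen with earlier results of these data known. Genes given library by library are MDM2, CDKN1A, members of each role with large fold changes in 22RV1 cells with H2O2, and those differing most between the lines. BBC3, AEN, XPC and TIGAR rose more there than some members of their roles so given, but have no levels by library. PMAIP1, TNFRSF10B and CYFIP2, and the genes named from other lists, were chosen after their values were seen. For RNA extraction the labels name Trizol and the study's methods a column kit. Gene overlaps are those of GENCODE release 44. Some genes that the rule and the marker lists name are not reported here.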

Additional observations from a re-analysis of the deposited data

Results flagged for a closer look

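The H2O2 response of 23 target genes differed between 22RV1 and DU145 cells by the edgeR test of the difference itself (Benjamini-Hochberg adjusted p under 0.05), each with the higher value in 22RV1 cells. The largest differences in log2 fold change were 2.92 for GDF15, 2.42 for FDXR, 2.37 for PHLDA3, 2.27 for FAS, 2.26 for TP53INP1 and 2.05 for PLK2. They were 1.75 for DRAM1, 1.70 for BTG2, 1.63 for DDB2, 1.59 for POLH, 1.56 for SESN1, 1.36 for CYFIP2, 1.30 for TIGAR, 1.24 for TP53I3 and 1.09 for BBC3. The smaller ones were 0.99 for CDKN1A and for RPS27L, 0.93 for PPM1D, 0.90 for PLK3, 0.86 for ZMAT3, 0.77 for CCNG1, 0.74 for XPC and 0.64 for MDM2. The PAGE4 effect on CYFIP2 also differed between the lines by the same test, by 1.57, with higher levels in PAGE4 cells in both treatments in 22RV1 cells and lower levels in both treatments in DU145 cells.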

How the results depend on the processing

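The DESeq2 Wald test ended both calls of the PAGE4 by H2O2 interaction (0 members lower). With no filter on low counts, 1 member was lower in the common H2O2 response and 1 in the line difference, the PAGE4 effect gave 1 higher over both lines, 4 higher and 1 lower in 22RV1 cells, 1 higher and 1 lower in DU145 cells, and 2 higher and 2 lower in the line difference. Of the 41771 genes then tested, the PAGE4 effect was called either way for 483 over both lines and 1312 in 22RV1 cells. It was called for 217 in DU145 cells and 806 in the line difference. The Wald test gave 1 lower in the common H2O2 response. The line difference of the PAGE4 effect had 2 higher with DESeq2 size factors and 1 lower with total counts. Between 2 libraries, total counts gave 2 lower with H2O2 in DU145 vector cells and 0 higher in DU145 PAGE4 cells with H2O2, and no minimum gave 2 higher there. With PBS alone, added after seeing the data, 9 members were lower in 22RV1 than in DU145 cells. Total counts moved the median of all genes in 22RV1 cells with H2O2 to 0.116.

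Leaving out each pair in turn gave 0 to 1 members lower in the common H2O2 response, 3 to 7 lower in DU145 cells with H2O2 (3 without the DU145 vector pair) and 0 to 2 lower in the line difference (2 without the 22RV1 vector pair). The PAGE4 effect then had 3 to 4 higher and 0 to 5 lower in 22RV1 cells (5 without the 22RV1 PBS pair), 0 to 3 higher and 0 to 1 lower in DU145 cells, and 1 to 2 higher and 0 to 5 lower in the line difference. The log2 fold change of FAS in DU145 cells ran from -0.40 to 0.13, and the line difference of AEN from -0.13 to 0.56. In 22RV1 cells 27 to 30 of the 30 H2O2 calls were kept. With a pair left out, the effect in its line rested on the remaining pair of libraries, and calls over all genes shifted as well. These counts are therefore no result about the members. For all these shifts the cause was not tested. The interaction could not be fitted without a pair. Of 236 recomputed counts, 204 stayed within 1.5 times the main count.

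The fits were blocked by pairs of libraries of the same line and construct or treatment, and no replicate numbers were there to pair samples by. Counts in this part include EDA2R and SPATA18. Genes at or under 3 counts in a line cannot be compared at this depth, and EDA2R and SPATA18 have no fold change in DU145 cells.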
